A study of Rattus norvegicus with 18 samples.

Results

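The muscle microRNAs (miRNAs) miR-1, miR-133 and miR-206 were followed in small RNA libraries of rat cervical dorsal root ganglia (DRG), which hold the cell bodies of the sensory neurons of the forelimb. They were taken by name, as every entry for miR-1-3p, miR-1-5p, miR-1b, miR-133a, miR-133b or miR-206 with any arm. This gave 9 members of 753 listed miRNAs. Counts were found for 5 of the 9, and the other 4, rno-miR-133a-3p among them, stood at 0 in every library. The detection filter (over 10 counts in 6 or more of 18 libraries) left 3 for testing, rno-miR-1b, rno-miR-133b-3p and rno-miR-206-3p.

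All rats were adult lister hooded rats, with 6 in each of 3 groups and 1 library per rat. Naive rats had neither surgery nor injection. The bPYX+GFP and bPYX+NT3 rats had a bilateral pyramidotomy (bPYX), a cut of the corticospinal tract on each side at the pyramids of the medulla. On the following day an AAV1 vector with the CMV promoter was injected into forelimb flexor muscles of one side. The vector carried enhanced green fluorescent protein in bPYX+GFP rats and human prepro-neurotrophin-3 in bPYX+NT3 rats, and ganglia were taken 10 weeks after injury. Injury and vector injection came together in both injected groups, so a difference from naive rats cannot be assigned to either. Ganglia of cervical levels 6 to 8 on the treated side were combined within each rat, so each library held neurons, glia, vessels and any tissue left on the ganglia. In such whole tissue, fewer cells of a type and less RNA per cell cannot be told apart.

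A miRNA is a short RNA that is loaded into an Argonaute protein and represses messenger RNAs that pair with its seed, bases 2 to 8. miR-1, miR-133 and miR-206 are called myomiRs because they are abundant in muscle, where they are induced by myogenic transcription factors and SRF. miR-1 and miR-133a are made in heart and skeletal muscle from shared precursors, and miR-206 and miR-133b in skeletal muscle from another. miR-1 and miR-206 promote muscle differentiation, miR-133 acts on myoblast proliferation, and miR-1 has also been described in sensory neurons. The comparisons asked whether these miRNAs differed between groups whose muscles had or had not been injected. They also asked whether the miRNAs moved together from rat to rat. The tissue that these miRNAs came from was not tested.

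The mature sequences are shown because they set which reads could be counted for which entry. They are from RefSeq on assembly GRCr8, not the build of the counts, and the seed is in capitals. The first 3 sequences share 1 seed and the other 2 share another.
miR-1b: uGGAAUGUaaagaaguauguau
miR-1-3p: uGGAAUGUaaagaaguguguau
miR-206-3p: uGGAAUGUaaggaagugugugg
miR-133a-3p: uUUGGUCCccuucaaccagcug
miR-133b-3p: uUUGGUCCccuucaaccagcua

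miR-1b lay at chr3:187864736-187864757 on the plus strand of GRCr8, within no other gene of that annotation. It differed from miR-1-3p at 1 of 22 bases, G17A, counted from 1 at the 5′ end with the base of miR-1-3p first. miR-1-3p (chr18:2160339-2160360) and miR-133a-3p (chr18:2157886-2157907), both on the minus strand, lay within the span of the gene Mib1. miR-206-3p (chr9:30590747-30590768) and miR-133b-3p (chr9:30594629-30594650), both on the plus strand, lay within the span of the same long noncoding RNA gene, LOC120094648. The strands of these enclosing genes were not compared with those of the miRNAs. miR-206-3p differed from miR-1-3p at 3 bases, A11G, A21G and U22G. miR-133b-3p differed from miR-133a-3p at the last base only, G22A. Reads 1 base apart, or trimmed at the end, may have been placed with either entry.

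Of the 9 entries, 4 were empty. miR-1-3p, miR-1-5p, miR-133a-3p and miR-206-5p had 0 counts in all 18 libraries, and 3 counts, the limit that a count of 0 allows, came to between 0.434 and 0.773 per M miRNA counts of a library (M, mega). miR-133a-5p, the passenger arm, had 15 counts in all, from 1 to 5 in each of 8 libraries and 0 in the others. miR-133b-5p had 1 count, in bPYX+NT3 replicate 2. These 6 entries were not tested.

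For miR-1-3p and miR-133a-3p a zero was not a measure of absence. Both lie opposite another annotated mature miRNA, shown here with the bases that lie opposite the muscle miRNA in capitals. miR-3571 (chr18:2160340-2160362) covers 21 bases of miR-1-3p and miR-133c (chr18:2157886-2157906) covers 21 bases of miR-133a-3p, both on the plus strand of GRCr8.
miR-3571: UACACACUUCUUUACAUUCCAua
miR-133c: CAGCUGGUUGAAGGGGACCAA

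miR-3571 and miR-133c were also at 0 counts in all 18 libraries. Of the 688 listed miRNAs matched to RefSeq, 86 had 1 location and a mature miRNA on the opposite strand, and 78 of these (90.7%) were at 0 in every library. Of 575 with 1 location and none on the opposite strand, 76 (13.2%) were at 0. The counter used by the authors sets aside reads that overlap more than 1 feature as ambiguous, and the strand setting is not given in the sources used here. These ambiguous reads numbered from 324161 to 661241 per library. How many of them were miR-1-3p or miR-133a-3p was not measured, so the family is seen here through miR-1b, miR-133b-3p and miR-206-3p, none of which lies opposite a mature miRNA.

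**Figure D1:**
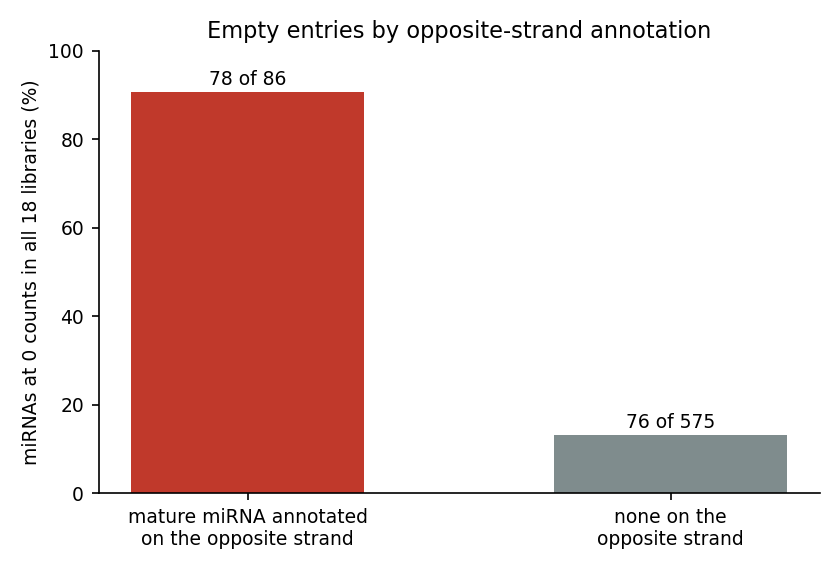
Share of miRNAs at 0 counts in all 18 libraries (vertical axis, percent), for miRNAs with 1 location in RefSeq, split by whether a mature miRNA is annotated on the opposite strand. The share was 90.7% (78 of 86, among them miR-1-3p and miR-133a-3p) against 13.2% (76 of 575).

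Counts given to miRNAs ranged from 3.88 to 6.92 M per library, with a median of 4.55 M, and bPYX+GFP replicate 3 was the largest. Of the fixed marker miRNAs, miR-182 and miR-96-5p of sensory neurons were abundant in every library, at no fewer than 97298 and 16199 counts. miR-183-5p and the glial miR-338-3p were at 0 throughout, and each of them has a mature miRNA on its opposite strand.

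rno-miR-1b was among the abundant entries, 19th by mean level, and held 0.962% of the counts given to miRNAs. Reads set aside in counting are outside this rank and share, and most entries opposite another mature miRNA were at 0. Levels are given as counts per M after TMM scaling (CPM), a correction for differences in composition between libraries. In naive rats the lowest, median and highest libraries had 7685, 8667 and 9379 CPM. In bPYX+GFP rats they had 8721, 9209.8 and 11010.1 CPM, and in bPYX+NT3 rats 7882, 10819 and 13373 CPM. The means were 8629 ± 608, 9453 ± 830 and 10614 ± 1819 CPM (SD, n = 6 per group). All 3 groups overlapped, and the lowest bPYX+NT3 library, replicate 4, lay within the naive range while the highest, replicate 5, lay above every other library.

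miR-133b-3p was far less abundant, with a median of 195.5 and at most 281 counts per library. Its lowest, median and highest libraries had 33.2, 39.8 and 54.7 CPM in naive rats, 29.98, 38.7 and 52.4 CPM in bPYX+GFP rats and 36.9, 46.9 and 53.8 CPM in bPYX+NT3 rats. The means were 40.7 ± 7.50, 40.2 ± 7.42 and 46.3 ± 6.49 CPM (SD, n = 6 per group). The ranges of the 3 groups lay over each other, and the highest library of all was naive replicate 1.

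rno-miR-206-3p, the member of the family most particular to skeletal muscle, differed most from rat to rat. Its lowest, median and highest libraries had 65.8, 90.0 and 143.8 CPM in naive rats, 41.5, 104.9 and 297.0 CPM in bPYX+GFP rats and 46.1, 80.9 and 213.2 CPM in bPYX+NT3 rats. The means were 95.2 ± 30.7, 136.7 ± 98.6 and 111.5 ± 76.6 CPM (SD, n = 6 per group). Both injected groups held rats above every naive rat. Below every naive rat lay bPYX+GFP replicate 4 and bPYX+NT3 replicates 2, 4 and 6. In bPYX+GFP the high libraries were replicates 3 and 6, and in bPYX+NT3 they were replicates 1 and 3.

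**Figure D2:**
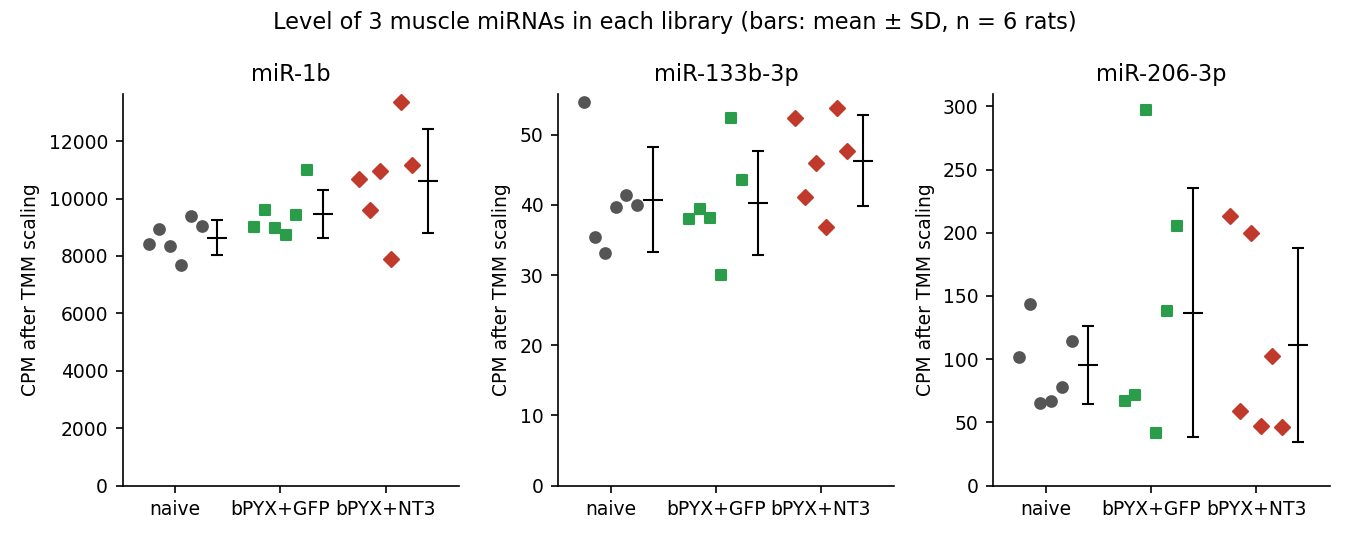
Level of miR-1b, miR-133b-3p and miR-206-3p (vertical axes, CPM after TMM scaling, from 0) in each of the 6 libraries of each group, with 1 point per rat and the mean ± SD beside them. miR-206-3p ran from 41.5 to 297.0 CPM over all rats, while miR-1b stayed between 7685 and 13373 CPM.

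The spread of miR-206-3p was large for its level. It varied 7.16-fold between the lowest and highest of the 18 libraries, against 1.74-fold for miR-1b, 1.82-fold for miR-133b-3p and a median of 1.83-fold over the 373 tested miRNAs. Its coefficient of variation (CV, the SD as a percent of the mean), averaged over the 3 groups, was 57.7%, against a median of 14.3% over the tested miRNAs. That ranked 2nd of 373, and 1st among the 158 miRNAs with a mean level at least as high. Counting error alone would give a CV of about 4.25% over the 18 libraries. miR-1b ranked 280th, at 11.0%, and miR-133b-3p 150th, at 17.0%.

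**Figure D3:**
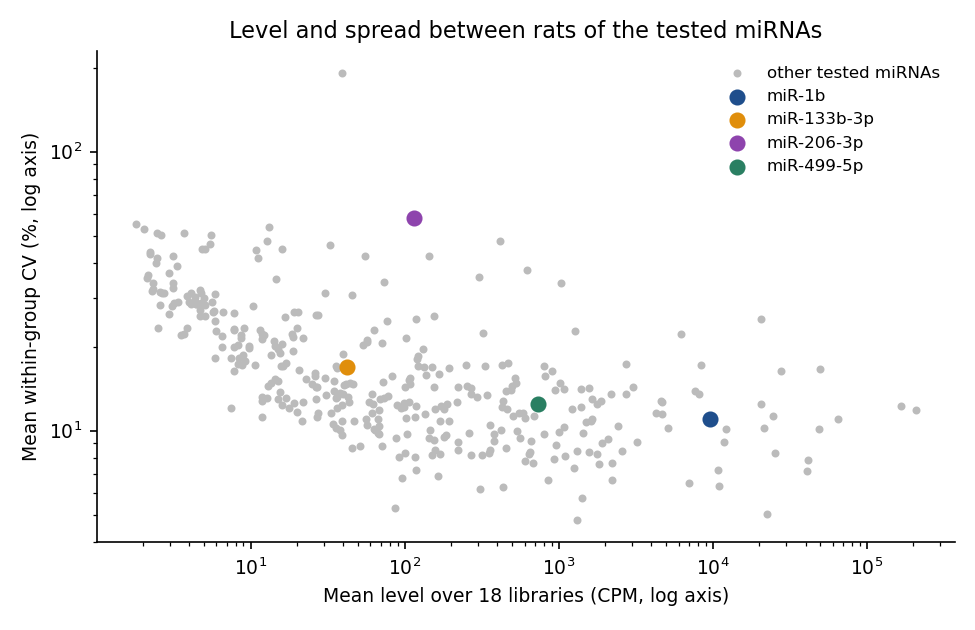
Mean level over 18 libraries (horizontal, CPM, log axis) and CV averaged over the 3 groups (vertical, percent, log axis) for the 373 tested miRNAs, 1 point each. miR-206-3p stands at 57.7%, above all others of its level or higher, while miR-1b (11.0%) and miR-133b-3p (17.0%) lie within the main cloud, as does miR-499-5p (12.5%), another muscle-linked miRNA.

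In bPYX+GFP against naive rats, the comparison of injury and control vector with no surgery, none of the 3 miRNAs was called. By edgeR's quasi-likelihood test, 0 of 3 had a Benjamini-Hochberg adjusted p under 0.05, where 2.41% of the 373 tested miRNAs did. At an unadjusted p under 0.05 it was again 0 of 3, against 21.2%, and the DESeq2 Wald test also called 0 of 3. The log2 fold change of miR-1b was 0.13 ± 0.071 (SE, 95% interval -0.019 to 0.28, edgeR adjusted p = 0.313), and 6 of 6 bPYX+GFP libraries lay above the naive mean. It was 0.083 without bPYX+GFP replicate 6. That of miR-133b-3p was -0.018 ± 0.14 (interval -0.32 to 0.28, edgeR adjusted p = 0.973), and its sign was not stable. It was 0.013 with library size only in place of TMM scaling, and 0.084, 0.0059 or 0.054 without naive replicate 1, bPYX+GFP replicate 3 or bPYX+GFP replicate 4. For miR-206-3p it was 0.53 ± 0.39 (interval -0.30 to 1.35, edgeR adjusted p = 0.475), with 3 of 6 libraries above the naive mean. Without bPYX+GFP replicate 3, which had 1872 counts of miR-206-3p, it was 0.15 (edgeR adjusted p = 0.875), and with the replicate number as a block 0.25 (edgeR adjusted p = 0.758). The groups overlapped for all 3 miRNAs and did not overlap for 4.02% of those tested.

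In bPYX+NT3 against bPYX+GFP rats, which separates the neurotrophin from the vector and injury that both groups had, again 0 of 3 passed, by edgeR, by DESeq2 or at an unadjusted p under 0.05. The shares of all tested miRNAs were 0% by adjusted p and 8.58% by unadjusted p. The log2 fold changes were 0.17 ± 0.11 for miR-1b (interval -0.057 to 0.41), 0.21 ± 0.14 for miR-133b-3p (interval -0.085 to 0.50) and -0.27 ± 0.48 for miR-206-3p (interval -1.31 to 0.76). Their edgeR adjusted p were 0.668, 0.668 and 0.878. The bPYX+NT3 libraries lay above the bPYX+GFP mean in 5 of 6 for miR-1b and miR-133b-3p, and below it in 4 of 6 for miR-206-3p. Without bPYX+NT3 replicate 5 the value of miR-1b was 0.096, and without bPYX+GFP replicate 4 that of miR-133b-3p was 0.13. The direction of miR-206-3p turned without bPYX+GFP replicate 3, to 0.089. The groups overlapped for all 3, and 0% of the tested miRNAs had groups that did not.

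In bPYX+NT3 against naive rats, 0 of 3 had an edgeR adjusted p under 0.05, as for 0% of all tested miRNAs, and the DESeq2 Wald test called 0 of 3. At an unadjusted p under 0.05 it was 1 of 3, against 13.7%. This was miR-1b, with a log2 fold change of 0.30 ± 0.10 (SE, interval 0.075 to 0.52, unadjusted p = 0.0121, edgeR adjusted p = 0.247), higher in 5 of 6 libraries than the naive mean. The exception was bPYX+NT3 replicate 4, at 7882 CPM, and without it the log2 fold change was 0.39 (edgeR adjusted p = 0.0403). Over the alternatives tried, its adjusted p ranged from 0.0403 to 0.444. miR-133b-3p was 0.19 ± 0.13 (interval -0.093 to 0.47, edgeR adjusted p = 0.534) and miR-206-3p 0.23 ± 0.37 (interval -0.56 to 1.02, edgeR adjusted p = 0.805). For miR-206-3p the value was -0.020 without bPYX+NT3 replicate 3, 0.0012 without bPYX+NT3 replicate 1 and 0.0075 with the replicate number as a block. Without bPYX+NT3 replicate 4 or 6 it rose to 0.42 or 0.39. It was 0.38 without naive replicate 2 or without bPYX+NT3 replicate 2. For miR-133b-3p it was 0.29 without naive replicate 1. The groups overlapped for all 3 and did not for 1.34% of the tested miRNAs.

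Both injected groups together were also compared with naive rats, in a fit of all 18 libraries that shares them with the comparisons above. Again 0 of 3 had an edgeR adjusted p under 0.05, against 2.14% of all tested, and the DESeq2 Wald test called 0 of 3. At an unadjusted p under 0.05 it was 1 of 3, against 18.8%, and this was miR-1b again. Its log2 fold change was 0.22 ± 0.085 (SE, interval 0.039 to 0.39, unadjusted p = 0.0192, edgeR adjusted p = 0.149), and 11 of 12 injected libraries lay above the naive mean. Without bPYX+NT3 replicate 4 it was 0.27 (edgeR adjusted p = 0.0424). miR-133b-3p was 0.084 ± 0.12 (interval -0.16 to 0.33, edgeR adjusted p = 0.757) and miR-206-3p 0.38 ± 0.39 (interval -0.43 to 1.19, edgeR adjusted p = 0.642). Without bPYX+GFP replicate 3 or bPYX+NT3 replicate 1 that of miR-206-3p was 0.21 or 0.23, and with the replicate number as a block 0.14. That of miR-133b-3p was 0.19 without naive replicate 1, and 0.048, 0.032 or 0.055 without naive replicate 2, naive replicate 3 or bPYX+GFP replicate 5. With library size only in place of TMM scaling it was 0.13. The median log2 fold change over all 373 tested miRNAs was 0.0036 in bPYX+GFP against naive and 0.013 here. The groups overlapped for all 3, and did not for 0.268% of those tested.

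**Figure D4:**
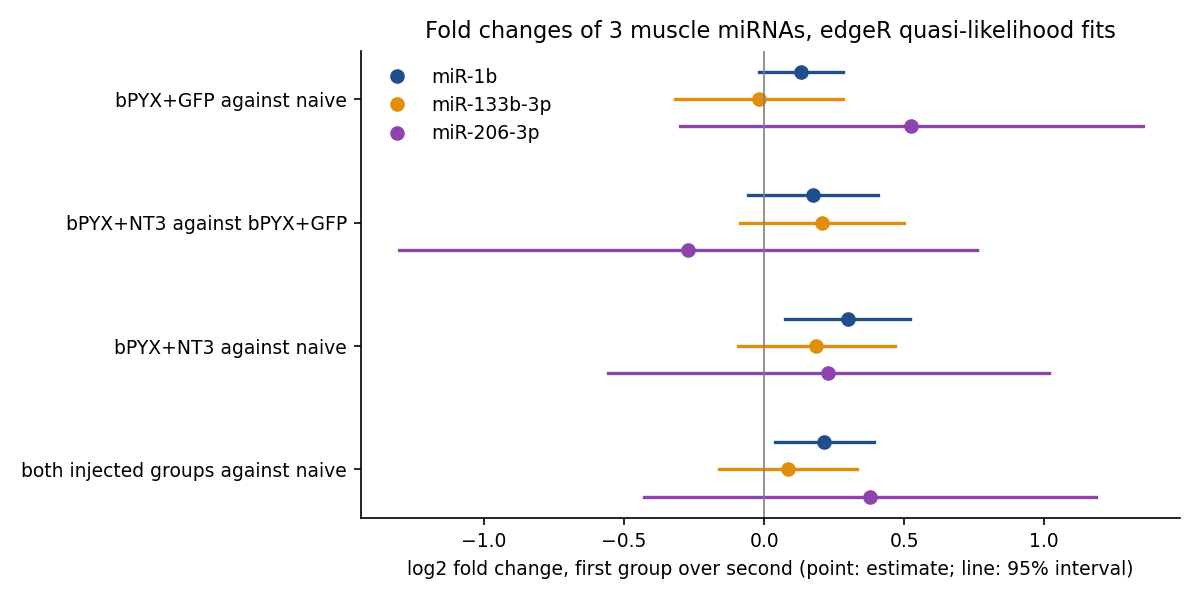
Log2 fold changes of miR-1b, miR-133b-3p and miR-206-3p in the 4 comparisons (horizontal axis, first group over second), with the edgeR estimate as a point and its 95% interval as a line. The interval of miR-1b lies above 0 in the last 2 comparisons, though no adjusted p was under 0.05, and that of miR-206-3p is the widest in each.

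The 3 miRNAs were then set against each other over the 18 libraries, in log2(CPM + 1), as 3 relations. miR-1b and miR-133b-3p had a Pearson r of 0.577 (permutation p = 0.0117, Benjamini-Hochberg adjusted p = 0.0351) and a Spearman rho of 0.606 (permutation p = 0.00883, adjusted p = 0.0265). Without the 2 libraries farthest from the median of miR-1b, bPYX+NT3 replicates 5 and 6, r was 0.434 (permutation p = 0.0939), so the call rested on those libraries, though not on them alone. Without naive replicate 3, bPYX+NT3 replicate 1 or bPYX+NT3 replicate 4 the permutation adjusted p was 0.0697, 0.0643 or 0.0613. With library totals in place of TMM scaling r was 0.741 (permutation adjusted p = 0.00126). As deviations from the group means r was 0.511 (permutation adjusted p = 0.0869). Within groups of 6 it was -0.029 for naive, 0.521 for bPYX+GFP and 0.910 for bPYX+NT3 rats, with exact permutation p of 0.958, 0.282 and 0.00972. Over the 9 relations within groups the smallest adjusted p was 0.0875.

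For miR-206-3p neither relation passed the test over all 18 libraries, and the values moved with the libraries kept. Its r was 0.319 with miR-1b (rho 0.311, permutation p = 0.198 and 0.209, adjusted p = 0.198 and 0.209). It was 0.380 with miR-133b-3p (rho 0.377, permutation p = 0.120 and 0.125, adjusted p = 0.180 and 0.188). Both lie within the span of 1 long noncoding RNA gene, whose strand was not compared. Without bPYX+NT3 replicates 5 and 6, the 2 libraries farthest from the median of miR-1b, the r of miR-206-3p with miR-1b was 0.602 (permutation p = 0.0140, adjusted p = 0.0420). Without the 2 farthest from the median of miR-133b-3p, naive replicate 1 and bPYX+GFP replicate 4, its r with miR-133b-3p was 0.277 (permutation p = 0.293). Without bPYX+GFP replicate 3, the largest library, it was 0.513 (permutation p = 0.0367, adjusted p = 0.0551), and as deviations from the group means 0.456 (permutation p = 0.0579, adjusted p = 0.0869). With miR-1b these values were 0.420 (permutation adjusted p = 0.0921) and 0.405 (permutation adjusted p = 0.0941). Within groups its r was 0.503, 0.434 and 0.420 with miR-1b and 0.134, 0.548 and 0.587 with miR-133b-3p, given in the order naive, bPYX+GFP, bPYX+NT3. The smallest exact permutation p of these 6 was 0.231.

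**Figure D5:**
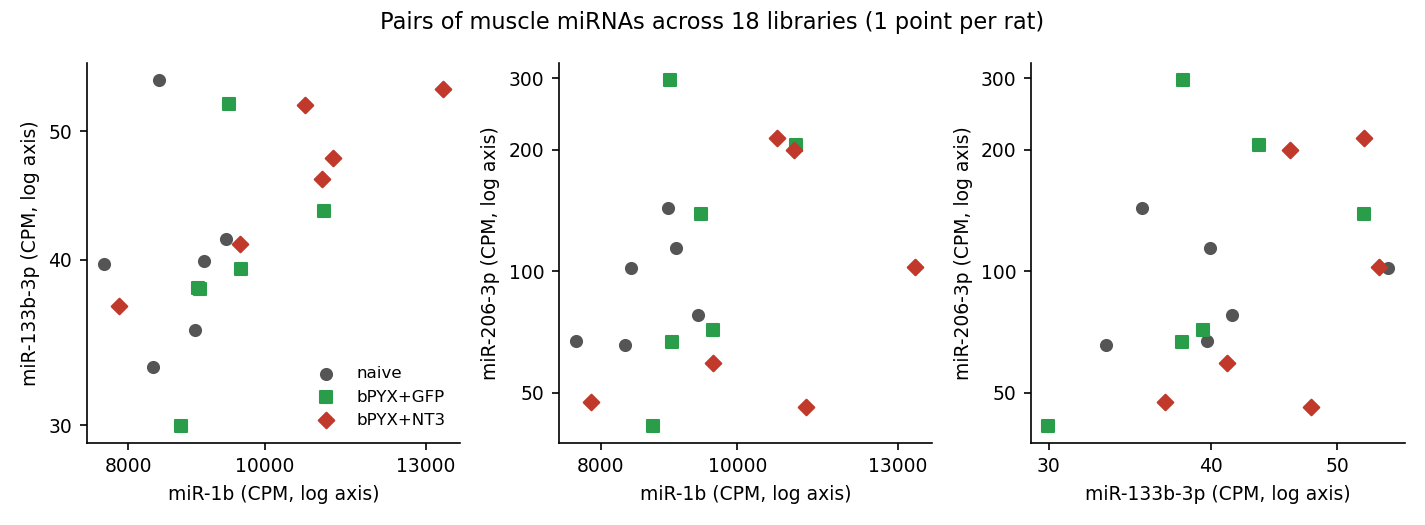
Levels of each pair of muscle miRNAs (both axes CPM, log scale) in the 18 libraries, 1 point per rat, with the groups marked by colour and shape. Libraries with more miR-1b tended to hold more miR-133b-3p (r = 0.577), and the rat of highest miR-206-3p, at 297.0 CPM, was not the rat of highest miR-1b, at 13373 CPM.

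In counts of the same library, miR-206-3p was from 0.966 to 7.80 times miR-133b-3p, with a median of 1.89. The highest ratio was in bPYX+GFP replicate 3 and the lowest in bPYX+NT3 replicate 6. The next highest was 4.71, in bPYX+GFP replicate 6. miR-1b was from 154 to 291 times miR-133b-3p, with a median of 235. Ligation and amplification differ between sequences, so a ratio of 2 miRNAs is not a ratio of molecules, but its change between libraries does not depend on a fixed bias.

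The tested miRNAs whose levels were most like each member over the 18 libraries lay outside the family, and their tissue of origin was not tested. They are given as a description, and all points share the depth and scaling of their library. For miR-1b they were miR-369-3p (r = 0.775), miR-376c-3p (0.757) and miR-3068-5p (0.751), and miR-133b-3p came 21st. miR-369-3p and miR-376c-3p belong to the imprinted Dlk1-Dio3 region. For miR-133b-3p they were miR-34a-5p (r = 0.792), miR-326-3p (0.757) and the neuronal miR-137-3p (0.707), and miR-1b came 17th. For miR-206-3p they were miR-143-5p (r = 0.656), miR-148b-3p (0.599) and miR-345-5p (0.556), while miR-133b-3p came 29th and miR-1b 47th. miR-143-5p is the passenger arm of a precursor known from smooth muscle.

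Other muscle-linked miRNAs were read as a check on muscle RNA. miR-208a-3p and miR-208b-3p, which are encoded in the cardiac myosin heavy chain genes, had 3 and 4 counts in all 18 libraries together and never more than 1 in a library. miR-208a-5p, miR-208b-5p and miR-133c were at 0. Of these, miR-208a-5p and miR-133c have a mature miRNA on the opposite strand, so their zeros were not a measure of absence. miR-499-5p, encoded within Myh7b, had from 2412 to 4689 counts per library and a mean of 736 CPM. Naive rats had 796 ± 94.3 CPM, bPYX+GFP rats 740.1 ± 65.8 CPM and bPYX+NT3 rats 674 ± 113 CPM (SD, n = 6 per group), the reverse order to that of miR-1b. The other arm, miR-499-3p, had too few counts to be tested, 41 in 13 libraries, with sums of 6, 8 and 27 counts in naive, bPYX+GFP and bPYX+NT3, the order of miR-1b. The log2 fold change of miR-499-5p in bPYX+NT3 against naive was -0.24 ± 0.11 (SE, unadjusted p = 0.0493, edgeR adjusted p = 0.349). Its r over the 18 libraries was -0.33 with miR-1b, -0.19 with miR-133b-3p and -0.18 with miR-206-3p.

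Of the 8 miRNAs fixed as markers of skeletal or heart muscle, 6 had counts and 4 were tested. The entries miR-1-3p and miR-133a-3p were at 0, which was not a measure of absence. The summed level of the 8, most of it miR-1b, ranged from 8562 to 10312 CPM among naive rats. It ranged from 9541 to 12127 CPM among bPYX+GFP rats and from 8654 to 14105 CPM among bPYX+NT3 rats. The smooth muscle markers miR-143-3p and miR-145-5p summed to 41686 to 68813, 44507 to 59397 and 41024 to 59027 CPM in the same order. The red blood cell markers miR-451-5p and miR-144-3p summed to 121 to 553, 196 to 676 and 254 to 1067 CPM. The sensory neuron markers miR-182 and miR-96-5p together ran from 23640.2 to 31007, 28964 to 33099 and 25916 to 32954 CPM, the neuronal markers miR-128-3p and miR-124-3p from 7200.4 to 10082, 7409 to 8845 and 5098 to 9712 CPM, and the glial markers miR-204-5p and miR-219a-5p from 6924 to 11923, 7354 to 9609.7 and 5316 to 10565 CPM. miR-124-3p and miR-219a-5p had only 0 to 7 counts per library and were not tested. The neuronal sum was thus nearly all miR-128-3p, and the glial sum nearly all miR-204-5p. The ranges of the groups overlapped for each of the sums above, which 1 miRNA can dominate. By itself, miR-182 had a log2 fold change of 0.19 ± 0.067 in both injected groups against naive (SE, unadjusted p = 0.00943, edgeR adjusted p = 0.111), beside 0.22 for miR-1b. In the same comparison miR-96-5p had 0.013 ± 0.083 (edgeR adjusted p = 0.948) and the neuronal miR-128-3p -0.16 ± 0.10 (edgeR adjusted p = 0.415). miR-145-5p had -0.50 ± 0.14 in bPYX+GFP against naive (SE, unadjusted p = 0.00279, edgeR adjusted p = 0.0742) and 0.40 ± 0.16 in bPYX+NT3 against bPYX+GFP (unadjusted p = 0.0249, edgeR adjusted p = 0.442). miR-143-3p had 0.0096 ± 0.12 and -0.0017 ± 0.11 in these comparisons (edgeR adjusted p = 0.983 and 0.994). The part of muscle, vessel or blood RNA in the levels of miR-1b, miR-133b-3p and miR-206-3p was not tested.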

How the data were processed

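Whole ganglia of 18 rats gave 1 small RNA library each. Per the study's methods and the labels, libraries were made with a NEBNext kit and read as 50 bp single ends. The authors demultiplexed with bcl2fastq 1.8.4, trimmed adapters, aligned with Bowtie2 to Rnor_5.0 and counted with HTSeq-count; other versions and the miRNA annotation are not given in the sources used here. The deposited values are raw read counts per mature miRNA without molecular identifiers, so limits from counts cover counting error only. Reads of too low alignment quality, as from identical copies, were 31.4 ± 1.88% of all entries (SD, n = 18), ambiguous reads 3.26%, reads outside miRNAs 3.20% and reads not aligned 27.2%. These 5 entries, 1 of them empty, stayed out of library sizes and tests.

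Groups came from the titles and columns were matched by sample name. No library repeated another: the lowest chi-square between libraries of the same group was 29.8 per degree of freedom. A miRNA was tested with over 10 counts in 6 or more of 18 libraries. Each pair of groups was fitted on its 12 libraries with edgeR 4.0.16 in R 4.3.3 (TMM scaling, quasi-likelihood F test), with Benjamini-Hochberg adjustment over 373 miRNAs. The contrast of both injected groups with naive used all 18 libraries. SEs came from the F statistic. Correlations used 100000 resamples, or all orders within groups of 6 (numpy 2.4.6). Every test was two-sided. DESeq2 1.42.0 and the other settings below were alternatives. The tests were checked on simulated counts, and the outcome is not given here. Sequences and opposite-strand neighbours came from RefSeq on GRCr8. Every member, the listed muscle-linked miRNAs and the 3 of highest r with each tested member are named; no entry was listed for miR-486. The members and lists were chosen with earlier results of these data known. The study left out 1 naive rat as an outlier, which was kept here.

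Same-numbered rats of different groups did not deviate together in every pair, so replicate numbers were not taken to pair the rats.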

Additional observations from a re-analysis of the deposited data

Results flagged for a closer look

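The highest and lowest rat of each group were compared with the rest by Dixon's ratio for miR-1b, miR-133b-3p, miR-206-3p and the library total, in 12 groups of 6. By chance about 1 in 20 groups would stand out. The total of miRNA counts of bPYX+GFP replicate 3, at 6.92 M, lay far above the other libraries of its group. The same library had the highest miR-206-3p, 297.0 CPM, which did not pass the criterion within its group, and its part in that level was not tested.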

How the results depend on the processing

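Of 270 recalculations of the 12 fold changes of miR-1b, miR-133b-3p and miR-206-3p, 262 kept their direction and their side of the adjusted p of 0.05. For miR-133b-3p in bPYX+GFP against naive, library size only in place of TMM scaling gave 0.013, and values from -0.13 to 0.084 came from leaving out 1 library each. Leaving out 1 library each, miR-206-3p ranged from -0.58 to 0.089 in bPYX+NT3 against bPYX+GFP and from -0.020 to 0.42 in bPYX+NT3 against naive, and miR-1b from 0.083 to 0.16 in bPYX+GFP against naive, from 0.096 to 0.25 in bPYX+NT3 against bPYX+GFP, from 0.22 to 0.39 in bPYX+NT3 against naive and from 0.18 to 0.27 in both injected groups against naive. For miR-133b-3p the range was 0.13 to 0.30 in bPYX+NT3 against bPYX+GFP, 0.13 to 0.29 in bPYX+NT3 against naive (highest without naive replicate 1) and 0.032 to 0.19 in both injected groups against naive (lowest without naive replicate 3, highest without naive replicate 1). For miR-206-3p it was 0.15 to 0.71 in bPYX+GFP against naive and 0.21 to 0.53 in both injected groups against naive (lowest without bPYX+GFP replicate 3). The correlation of miR-1b with miR-133b-3p ranged from 0.479 to 0.734, and lost its call without naive replicate 3 (0.545) or bPYX+NT3 replicate 1 (0.550), 4 (0.557), 5 (0.479) or 6 (0.555). It was 0.741 with library totals in place of TMM scaling, 0.511 as deviations from the group mean, and 0.434 without the 2 farthest libraries, where that of miR-1b with miR-206-3p was 0.602. The cause was not tested.

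Over all tested miRNAs, the number with an adjusted p under 0.05 in bPYX+GFP against naive was 9, 22 by DESeq2, and 3 to 20 with 1 library left out. In bPYX+NT3 against naive it was 0, 1 by the likelihood ratio test, by DESeq2 or with all 3 groups fitted together, and 0 to 4 with 1 library left out. In both injected groups against naive it was 8, 5 without a filter, 21 by DESeq2, and 0 to 13 with 1 library left out. With the replicate number as a block these numbers were 7, 0 and 12, miR-206-3p was 0.25 in bPYX+GFP against naive, 0.0075 in bPYX+NT3 against naive and 0.14 in both injected groups against naive, and no muscle miRNA was called; of 18 pairs of same-numbered libraries, 6 had deviations correlated above 0.1 (range -0.41 to 0.39). The 63 recalculated mean levels moved by less than 1 SD. Among the 3 tested members, depth limited miR-133b-3p most, at no more than 281 counts in a library.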
